A study of Sus scrofa with 10 samples.

Results

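The genes described here load, fire and copy the DNA in S phase. They are 33 named genes of replication origin licensing, the replicative helicase, the DNA polymerases and their clamp, nucleotide supply and the cyclin E kinase. Members were found by gene name in the deposited gene table, where 32 of the 33 names had a row among 24358 listed genes. The names of 29 stood in the table itself, and those of CCNE1, GINS1 and RRM2 came from reference name tables. MCM5, a sixth helicase subunit, was not analysed here. Of the 32, 30 had a mean level of at least 1 FPKM (fragments per gene, scaled to gene length and library size) over the 10 libraries and entered the test with 8476 genes in all. POLE (mean 0.653 FPKM) and CCNE2 (0.968) fell below that filter.

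The 10 RNA-seq libraries were made from pig morulae, the compacting embryos that precede the blastocyst. For all 10, matured oocytes received a small interfering RNA (siRNA) by injection, were activated parthenogenetically, that is, without sperm, and grew to the morula. The siRNA was directed against DDB1 in 5 libraries (DDB1_KD) and was a non-specific negative control in the other 5 (NC). The labels state neither the number of embryos in a library nor whether each library had its own culture, so p-values measure only how these libraries differ among themselves, which may be partly technical.

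Origins are licensed before S phase, when the origin recognition complex, CDC6 and CDT1 load the MCM helicase onto DNA. Geminin (GMNN) binds CDT1 and blocks further loading, and CDT1 protein is destroyed once replication starts by the ubiquitin ligase of CUL4, DDB1 and the substrate receptor CDT2 (gene DTL) after CDT1 binds chromatin-bound PCNA. Cyclin E with CDK2, and the kinase CDC7, then turn loaded helicases into active ones with CDC45 and the GINS complex. Cleavage-stage embryos draw at first on messenger RNA stored in the oocyte. The RNA levels given here say nothing of the amounts of these proteins.

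DDB1, the adaptor of the CUL4 ligases (ENSSSCG00000013094, chromosome 2, 10171698 to 10200920, plus strand), checks the labels. It stood at 0.92, 1.30, 1.28, 1.30 and 1.55 FPKM in DDB1_KD replicates 1 to 5 and at 3.59, 3.12, 2.53, 3.15 and 4.44 FPKM in NC replicates 1 to 5. All 5 DDB1_KD libraries were below every NC library. The fitted log2 fold change was -1.39 (SE 0.28, edgeR quasi-likelihood test, adjusted p = 0.977), and an exact two-sided permutation test on log2(FPKM + 1), chosen for this single gene, gave p = 0.00794, the smallest that the 252 assignments allow. Library totals ran from 32466912 to 50911295 estimated counts, with 13522 to 14755 genes having counts. Embryo markers were present in every library: 7 of 8 listed (POU5F1, SOX2, NANOG, CDH1, DPPA2, TFAP2C and LIN28A) were measured, with a summed level of 253 to 327 FPKM. DPPA2 led that sum at a mean of 124 FPKM, while SOX2 fell as low as 0.286 FPKM and NANOG as low as 0.354. Markers of cumulus or granulosa cells summed to at most 1.22 FPKM, with FSHR, AMH and CYP11A1 at 0 counts throughout. Fibroblast markers summed to 0.835 to 3.14 FPKM and blood markers to 1.65 to 12.1 FPKM, highest in NC replicate 1 and next in DDB1_KD replicate 1.

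None of the 30 tested replication genes passed an adjusted p of 0.05 in edgeR's quasi-likelihood test (0.0% of the 8476 tested genes passed), and the 30 adjusted p-values were 0.977 to 0.992. At an unadjusted p under 0.05 the count of members was also 0, beside 2.89% of all tested genes. DESeq2 and limma called 0 members after adjustment as well, where DESeq2 called 0.0236% and limma 0.0% of all tested genes. Before adjustment both tools again had 0 members under 0.05, beside 4.16% of all tested genes in DESeq2 and 3.22% in limma. Fitted values were above 0 for 14 members and below 0 for 16 (50.0% of all tested genes were above). Their median was -0.04 on the log2 scale, beside 0.00 over all tested genes, and they ran from -0.55 for FEN1 to 0.40 for ORC6. In none of the 30 did the DDB1_KD and NC libraries separate without overlap, which 0.413% of all tested genes did. The median SE was 0.26 on the log2 scale, and intervals of 2 SE either side ran from -1.26 to 0.36 for CDT1 and from -0.46 to 0.86 for PCNA. In such whole-embryo RNA, fewer cells expressing a gene and less RNA per cell cannot be told apart.

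**Figure D1:**
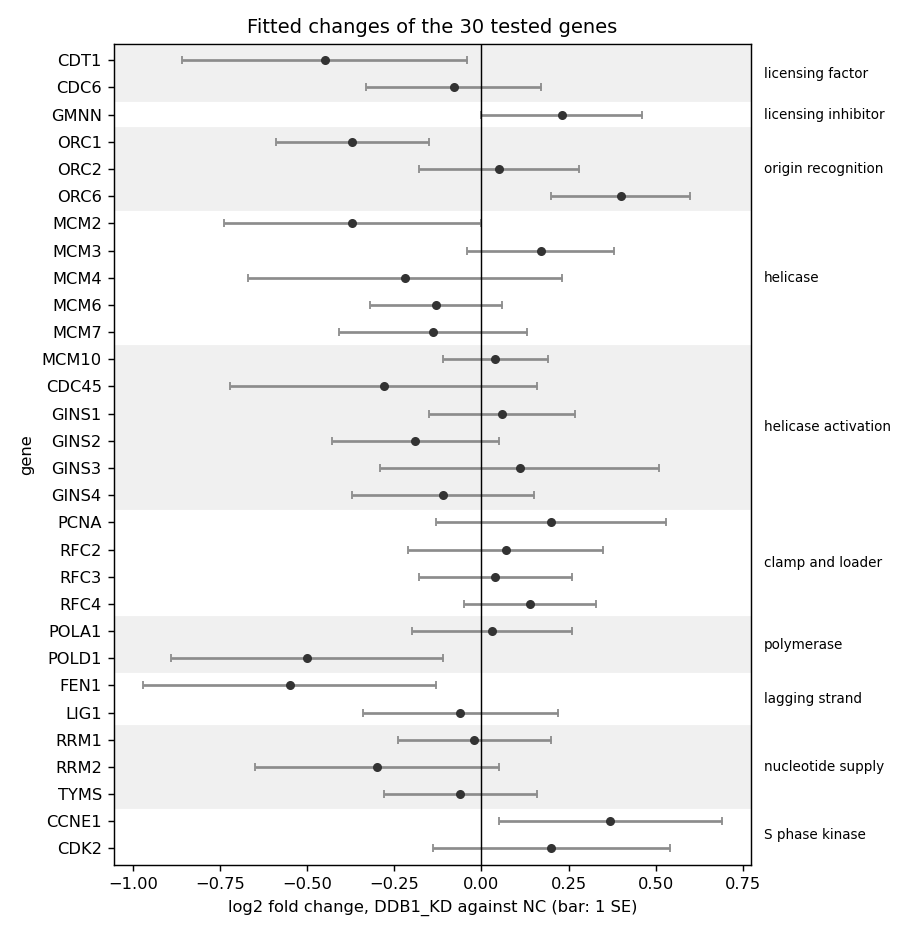
Fitted log2 fold change of each of the 30 tested genes, DDB1_KD against NC (x axis; positive is higher in DDB1_KD), from edgeR's quasi-likelihood fit. Points are fitted values, bars are 1 SE, shaded blocks group genes by role. Values run from -0.55 (FEN1) to 0.40 (ORC6), and none passed an adjusted p of 0.05.

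CDT1, the licensing factor whose protein is a substrate of the DDB1-containing ligase, had the lowest mean level of the licensing genes (ENSSSCG00000002651, chromosome 6, 893381 to 897627, minus strand). Its level was 3.19, 1.09, 1.51, 5.0 and 1.68 FPKM in DDB1_KD replicates 1 to 5 and 4.45, 2.13, 2.97, 3.49 and 3.77 FPKM in NC. DDB1_KD replicates 2, 3 and 5 lay below every NC library and replicate 4 above every one. The means were 2.49 ± 1.61 and 3.36 ± 0.873 FPKM (SD, n = 5 each), with a fitted log2 fold change of -0.45 (SE 0.41, edgeR adjusted p = 0.977). It rests on 121 to 474 estimated counts per library. Without DDB1_KD replicate 4 the fitted value was -0.78, and without replicate 2 it was -0.25. CDC6, the ATPase that works with CDT1 in helicase loading, was at 5.13 ± 1.09 FPKM in DDB1_KD and 5.41 ± 1.63 in NC (log2 fold change -0.08, SE 0.25), and no DDB1_KD library lay outside the NC range.

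GMNN, the inhibitor of CDT1 (ENSSSCG00000001095, chromosome 7, 19585946 to 19595344, plus strand), was measured at 34.5, 43.5, 33.4, 25.2 and 28.0 FPKM in DDB1_KD and at 20.3, 41.1, 26.2, 25.3 and 27.6 FPKM in NC. In gene FPKM, DDB1_KD replicate 2 was the only library of its group above every NC library, and NC replicate 2 came close to it. Fitted over all libraries, the log2 fold change was 0.23 (SE 0.23). The span of GMNN overlaps that of RIPOR2 on the opposite strand. No label or header states whether reads were counted by strand, so reads of the pair may be shared.

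Set against each other within a library, CDT1 stood at 9.24%, 2.50%, 4.51%, 19.9% and 5.99% of the GMNN level (gene FPKM) in DDB1_KD and at 21.9%, 5.18%, 11.4%, 13.8% and 13.7% in NC. The lowest share was in DDB1_KD replicate 2, but NC replicate 2 was also low and DDB1_KD replicate 4 was the second highest, so the groups overlapped. The means were 8.42% ± 6.86 and 13.2% ± 6.01 (SD, n = 5). Leaving out DDB1_KD replicate 4 gave a DDB1_KD mean of 5.56%. The share depends on how length enters. With isoform levels summed, a measure chosen once the data had been seen, it was 4.50% ± 4.40 in DDB1_KD and 7.40% ± 3.77 in NC, because the deposited gene level of GMNN is divided by a length longer than that of its main isoform.

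**Figure D2:**
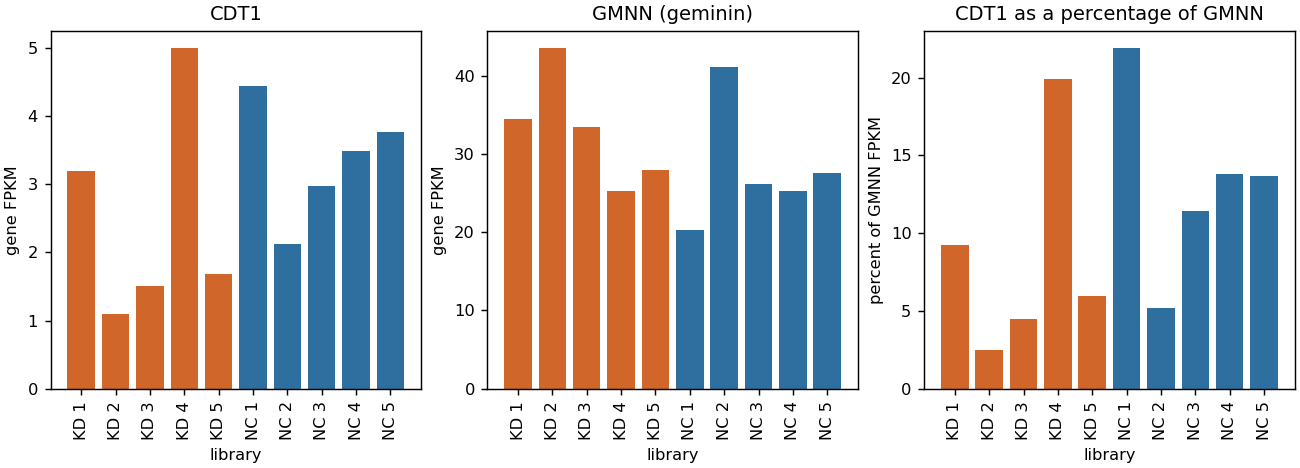
Level of CDT1 (left, FPKM), of GMNN (middle, FPKM) and of CDT1 as a percentage of GMNN (right) in each library, DDB1_KD orange and NC blue. The share runs from 2.50% to 19.9% in DDB1_KD and from 5.18% to 21.9% in NC, so the groups overlap.

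The origin recognition complex marks the sites where helicases are loaded, and its 3 members here had fitted values of both signs. ORC6 (ENSSSCG00000024443, chromosome 6, 37934904 to 37943886, minus strand), the smallest subunit, had the smallest p of all members. It was at 92.9, 142, 93.0, 85.9 and 106 FPKM in DDB1_KD and at 79.0, 60.1, 85.2, 99.6 and 72.5 FPKM in NC. Every DDB1_KD library exceeded 4 of the NC libraries, and replicates 2 and 5 exceeded all 5. This gave a log2 fold change of 0.40 (SE 0.20, edgeR adjusted p = 0.977), which corresponds to 132% of the NC level in the fit.

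ORC1, the subunit whose protein is degraded in S phase in mammalian cells (ENSSSCG00000003861, chromosome 6, 159819297 to 159852307, plus strand), had a fitted value of the other sign. Its level was 21.2, 12.5, 16.1, 27.3 and 16.5 FPKM in DDB1_KD and 28.2, 18.2, 21.8, 27.5 and 25.2 FPKM in NC. DDB1_KD replicates 2, 3 and 5 were again below every NC library, while replicates 1 and 4 were inside the NC range. Its log2 fold change was -0.37 (SE 0.22, edgeR adjusted p = 0.977). ORC2, a core subunit, was at 6.93 FPKM in DDB1_KD and 6.82 in NC (log2 fold change 0.05, SE 0.23).

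MCM2, MCM3, MCM4, MCM6 and MCM7, which with MCM5 form the ring of the replicative helicase, had fitted values below 0 for 4 and above 0 for 1. MCM2 (ENSSSCG00000011624, chromosome 13, 72629882 to 72650725, minus strand) differed widely between DDB1_KD libraries, at 10.2, 4.01, 4.74, 16.9 and 4.54 FPKM, against 13.8, 7.09, 9.47, 8.45 and 12.7 FPKM in NC. As for CDT1, DDB1_KD replicates 2, 3 and 5 were below every NC library and replicate 4 above every one. Its fitted log2 fold change was -0.37 (SE 0.37), and -0.75 without DDB1_KD replicate 4. MCM7 followed part of this order, at 20.2, 16.9, 12.6, 26.6 and 7.67 FPKM in DDB1_KD and 14.4 to 23.0 in NC, with replicates 3 and 5 below and replicate 4 above the NC range (log2 fold change -0.14, SE 0.27).

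MCM4, another ring subunit, was at 5.95, 2.40, 2.56, 8.49 and 2.36 FPKM in DDB1_KD and at 9.0, 5.37, 2.38, 5.22 and 2.69 FPKM in NC. Low and high libraries stood in both groups, and the fitted value of -0.22 (SE 0.45) turned to 0.11 without NC replicate 1. MCM6 and MCM3 were steadier. MCM6 was at 31.3 FPKM in DDB1_KD and 34.3 in NC (log2 fold change -0.13, SE 0.19), and MCM3 at 15.6 and 13.9 (0.17, SE 0.21). In gene FPKM, only DDB1_KD replicate 2 lay below the NC range for MCM6, at 26.0 against 26.1 FPKM, and only replicate 3 above it for MCM3.

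Helicase subunits enter the ring in equal numbers, but their RNA was far from equal. In gene FPKM, MCM6 was the highest and MCM4 the lowest of the 5 in 10 of 10 libraries, and the highest exceeded the lowest by 4.29 to 13.5 times. MCM6 made up 42.2% ± 5.40 of the summed level in DDB1_KD and 42.0% ± 4.36 in NC. MCM4 made up 5.33% ± 1.99 and 5.83% ± 2.46. The largest gap between group means was that of MCM3, at 21.2% ± 5.16 in DDB1_KD and 17.0% ± 1.94 in NC, with overlapping ranges. The summed level was 76.1 ± 20.0 FPKM in DDB1_KD and 81.8 ± 12.4 in NC (SD, n = 5). With isoform levels summed, MCM7 rather than MCM6 was the highest subunit in 3 of 10 libraries.

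**Figure D3:**
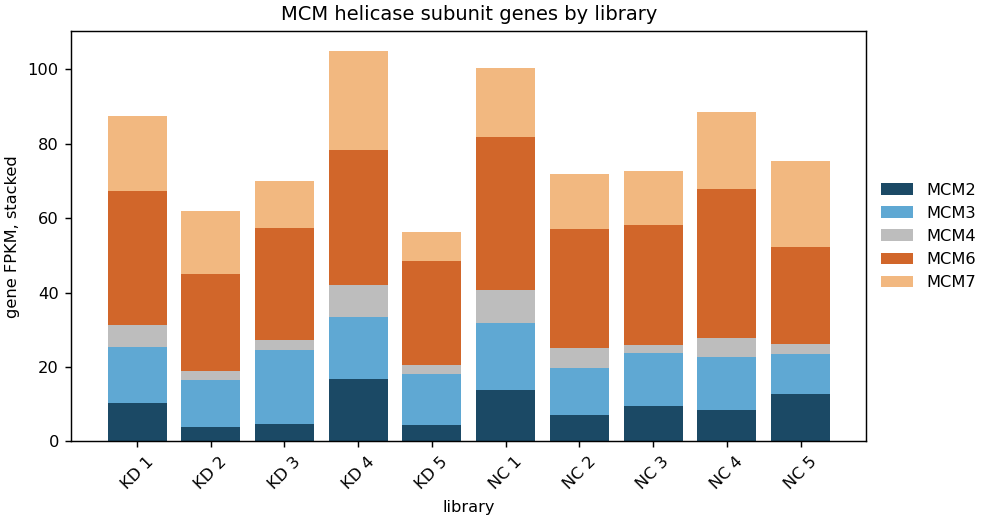
Stacked gene FPKM of the 5 measured MCM helicase subunits in each library (x axis; KD is DDB1_KD). Bars total 56.3 to 105 FPKM in DDB1_KD and 72.0 to 100 in NC, and MCM6 is the widest band in every library.

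CDC45 (ENSSSCG00000010122, chromosome 14, 51132781 to 51161972, plus strand) is one of the factors that switch the loaded helicase on. It stood at 2.57, 1.30, 0.999, 2.92 and 0.383 FPKM in DDB1_KD and at 2.36, 1.63, 1.36, 2.37 and 1.96 FPKM in NC. The 5 NC libraries fell inside the DDB1_KD range, with DDB1_KD replicates 2, 3 and 5 below and replicates 1 and 4 above all of them. Its log2 fold change was -0.28 (SE 0.44), and -0.02 without replicate 5. MCM10, which helps activate the helicase and holds polymerase alpha at the fork, varied little. It had 23.5 ± 2.95 FPKM in DDB1_KD and 22.9 ± 1.85 in NC, and its coefficient of variation over the 10 libraries was 10.1%, lower than in all but 0.3% of tested genes. CDC45 lies opposite MED15 and UFD1, and reads of such partners may be shared.

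GINS1, GINS2, GINS3 and GINS4 form the complex that links CDC45 to the helicase. GINS2 was at 8.34, 4.41, 4.62, 8.17 and 4.43 FPKM in DDB1_KD and at 8.37, 6.29, 5.29, 6.29 and 7.98 FPKM in NC, with replicates 2, 3 and 5 below every NC library (log2 fold change -0.19, SE 0.24). GINS3 was at 2.72, 1.15, 1.94, 6.07 and 2.45 FPKM in DDB1_KD and 1.56 to 3.96 in NC. DDB1_KD replicate 4 alone carried its positive fitted value, which was 0.11 (SE 0.40) with it and -0.27 without it. GINS1 (log2 fold change 0.06, SE 0.21) and GINS4 (-0.11, SE 0.26) had no DDB1_KD library below the NC range. GINS1 was the highest of the complex in 10 of 10 libraries, making up 59.2% ± 3.84 of its summed FPKM in DDB1_KD and 55.6% ± 5.57 in NC, and GINS3 was the lowest in 9.

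PCNA, the sliding clamp that holds polymerases on DNA, was the most abundant of all members in 10 of 10 libraries (ENSSSCG00000030642, chromosome 17, 14136886 to 14185276, minus strand). It was at 267, 688, 276, 196 and 251 FPKM in DDB1_KD and at 294, 366, 306, 311 and 170 FPKM in NC. DDB1_KD replicate 2 was above all other libraries, and the other 4 DDB1_KD libraries were below the NC mean of 289 ± 72.5 FPKM. The fitted log2 fold change of 0.20 (SE 0.33) became -0.20 when that library was left out.

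RFC2, RFC3 and RFC4, subunits of the loader that opens the clamp, had fitted values of 0.07 (SE 0.28), 0.04 (SE 0.22) and 0.14 (SE 0.19). RFC2 was at 37.4 FPKM in DDB1_KD replicate 4 and 35.6 FPKM in NC replicate 5, while the other 8 libraries ran from 12.0 to 21.1. Both groups thus held 1 high library. RFC3 was highest in DDB1_KD replicate 3 at 84.8 FPKM, and RFC4 in DDB1_KD replicate 4 at 36.0. All 4 clamp and loader genes were fitted above 0 under 3 scalings of the counts (TMM, DESeq2's size factors, total counts), but PCNA, RFC2 and RFC3 turned on leaving out 1 library.

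The catalytic subunit genes of the 3 replicative polymerases had different patterns by library. POLD1, the catalytic subunit of the lagging-strand polymerase delta (ENSSSCG00000003216, chromosome 6, 55247818 to 55272085, plus strand), was at 3.98, 1.83, 1.25, 5.04 and 1.29 FPKM in DDB1_KD and at 5.02, 2.32, 3.94, 3.46 and 3.95 FPKM in NC. DDB1_KD replicates 2, 3 and 5 were below every NC library, and replicate 4 was just above the highest of them. For POLD1 the log2 fold change was -0.50 (SE 0.39, edgeR adjusted p = 0.977), and -0.79 without replicate 4. POLE, the catalytic subunit of the leading-strand polymerase epsilon, was below the filter but showed the same libraries low, at 0.900, 0.480, 0.246, 0.832 and 0.258 FPKM in DDB1_KD and 0.507 to 1.07 in NC. A fit without the filter gave POLE -0.53 (SE 0.43). POLA1, of the primase-polymerase that starts each strand, was at 9.97 FPKM in DDB1_KD and 9.71 in NC (log2 fold change 0.03, SE 0.23), the highest of the 3 in 10 of 10 libraries.

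FEN1, the nuclease that trims Okazaki fragment flaps (ENSSSCG00000028696, chromosome 2, 9752751 to 9753893, minus strand), had the lowest fitted value of all members. It was at 3.07, 4.75, 2.0, 2.95 and 3.76 FPKM in DDB1_KD and at 2.89, 2.01, 6.02, 7.80 and 5.62 FPKM in NC. NC replicates 3, 4 and 5 exceeded all DDB1_KD libraries, but NC replicates 1 and 2 were among the lowest of the 10. The fitted log2 fold change of -0.55 (SE 0.42, edgeR adjusted p = 0.977) thus rests on the 3 high NC libraries, and was -0.27 without NC replicate 4. Among tested members, FEN1 alone had an unrounded fitted value at least 0.5 from 0, which 18.2% of all tested genes had, with POLD1 just inside that limit. LIG1, the ligase that seals the fragments, was at 5.54 and 5.75 FPKM (log2 fold change -0.06, SE 0.28), with DDB1_KD replicate 4 at 8.62, replicate 3 at 3.35 and replicate 5 at 3.96 outside the NC range of 4.57 to 8.03.

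RRM1 and RRM2 encode the large and the small subunit of ribonucleotide reductase, which makes deoxynucleotides, and TYMS makes thymidylate. RRM2 (ENSSSCG00000031741, chromosome 3, 126356655 to 126365644, minus strand) was at 63.1, 32.0, 41.8, 67.4 and 14.2 FPKM in DDB1_KD and at 53.2, 54.3, 51.8, 71.8 and 33.9 FPKM in NC. DDB1_KD replicates 2 and 5 were below every NC library, replicate 5 by a wide margin. The fitted log2 fold change was -0.30 (SE 0.35), and -0.08 without replicate 5. RRM1 was at 13.1 FPKM in DDB1_KD and 13.2 in NC (log2 fold change -0.02, SE 0.22), and TYMS at 62.4 and 65.2 (-0.06, SE 0.22). RRM2 exceeded RRM1 in 10 of 10 libraries, by 1.78 to 5.37 times in DDB1_KD and 2.27 to 5.50 times in NC. All 3 were fitted below 0, but RRM1 crossed to just above 0 with DESeq2's size factors, at a value that rounds to 0.00.

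CCNE1, the main cyclin E here (ENSSSCG00000002855, chromosome 6, 39919624 to 39933363, plus strand), was at 21.1, 20.0, 15.0, 21.1 and 20.7 FPKM in DDB1_KD and at 10.4, 13.0, 7.13, 25.6 and 19.5 FPKM in NC. The DDB1_KD libraries lay close together inside the wide NC range, and 4 of them exceeded 4 of the NC libraries. The edgeR fit gave a log2 fold change of 0.37 (SE 0.32, adjusted p = 0.977), and 0.68 without NC replicate 4. CCNE1 exceeded CCNE2 in 10 of 10 libraries. CCNE2 was at 0.950 FPKM in DDB1_KD and 0.986 in NC, and a fit without the filter gave -0.10 (SE 0.53). CDK2, the kinase that cyclin E activates, was at 1.55, 2.0, 2.73, 4.70 and 2.05 FPKM in DDB1_KD and at 1.60, 2.93, 1.55, 3.10 and 1.93 FPKM in NC. Replicate 4 was the one DDB1_KD library above the NC range, and the fitted value of 0.20 (SE 0.34) was -0.05 without it.

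Across members, the libraries of the DDB1_KD group divided in the same way for several genes. CDT1, ORC1, MCM2, CDC45, GINS2 and POLD1, 6 of the 30 tested members (20.0%), had DDB1_KD replicates 2, 3 and 5 below every NC library. This held for 8.6% of all tested genes. The reverse, these 3 libraries above every NC library, held for 0 members and for 5.33% of all tested genes, both shares being in gene FPKM. The 3 libraries were singled out after their values were seen, so these shares are a description with no test. In gene FPKM, replicate 4 lay above every NC library for CDT1, MCM2, CDC45 and POLD1 of the same 6. For POLD1 the margin was 5.04 against 5.02 FPKM. How many of all tested genes had this order was not counted. On the TMM-scaled log2 CPM scale, replicate 4 was below NC replicate 1 for POLD1, at 4.564 against 4.694. In gene FPKM it was the highest of the 10 libraries for 12 members (CDT1, MCM2, MCM7, CDC45, GINS1, GINS3, RFC2, RFC4, POLD1, LIG1, RRM1 and CDK2), 40.0% of members against 19.7% of all tested genes. On the TMM-scaled log2 CPM scale, tried after the data had been seen, it was the highest for 7 of these, 23.3% against 13.0%. DDB1_KD replicate 2 was the lowest in gene FPKM for 6 members (CDT1, ORC1, MCM2, MCM6, GINS2 and GINS3), 20.0% against 15.3% of all tested genes. On the TMM scale it was the lowest for 6, 20.0% against 19.1%. Single NC libraries had such excesses too. NC replicate 5 was the lowest for 6 members, 20.0% against 9.26% in gene FPKM and 20.0% against 11.3% on the TMM scale. NC replicate 1 was the highest for 5 in gene FPKM, 16.7% against 7.75%. NC replicate 4 was the highest for 5 on the TMM scale, 16.7% against 5.92%. The 6 genes with DDB1_KD replicates 2, 3 and 5 below every NC library were the same on both scales. On the TMM scale 7.35% of all tested genes had that order, and 6.57% of them and 0 members had the reverse. Other small margins changed with the scale. On the TMM scale DDB1_KD replicate 2 was above NC replicate 5 for MCM6, at 6.721 against 6.711. For GMNN it was below NC replicate 2, at 7.607 against 7.668.

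Other measures of these libraries differed along part of that division. The summed level of 16 measured maternal oocyte transcripts, such as BTG4, WEE2 and BMP15, was 442, 190 and 152 FPKM in DDB1_KD replicates 2, 3 and 5 but 17.9 and 59.8 FPKM in replicates 1 and 4, and 35.0 to 162 FPKM in NC. Replicates 2 and 3 thus exceeded every NC library and replicate 1 was below every one. TLE6 was at 0 counts throughout. BTG4 led the sum, with means of 71.1 FPKM in DDB1_KD and 27.8 in NC and a highest value of 266 FPKM. The sum therefore weighs that gene most and does not show that all 16 moved together. The summed level of 9 trophectoderm genes, led by KRT18, was 9.37, 57.1 and 238 FPKM in replicates 2, 3 and 5, 199 and 538 FPKM in replicates 1 and 4, and 219 to 847 FPKM in NC. Mitochondrially encoded genes took 16.8%, 16.4% and 24.4% of counts in replicates 2, 3 and 5 and 12.2% in both others, with 8.58% to 18.4% in NC. The part of these differences in the levels of replication genes was not tested.

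**Figure D4:**
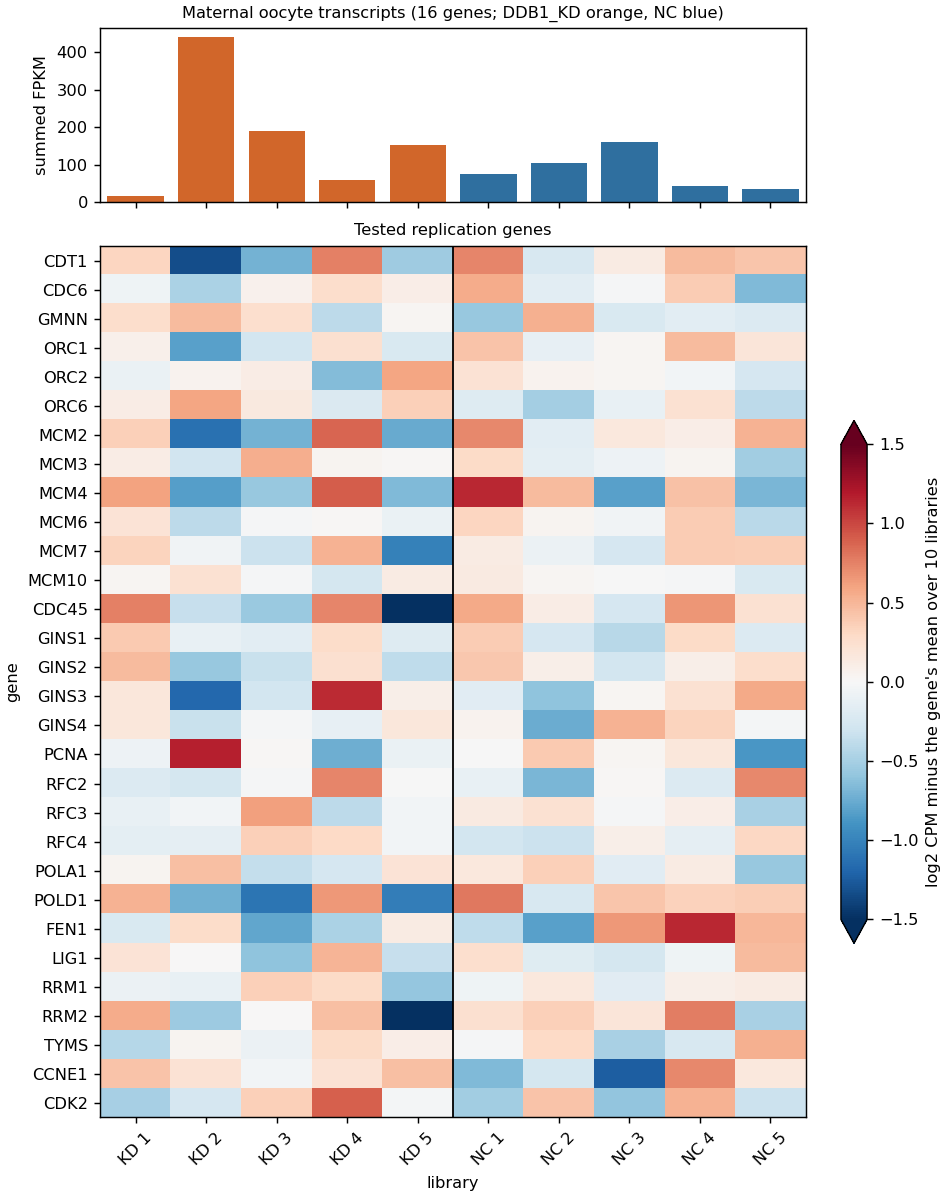
Top, summed FPKM of 16 maternal oocyte transcripts, led by BTG4, by library (DDB1_KD orange, NC blue). Bottom, log2 CPM (TMM-scaled) of each tested replication gene minus its mean over the 10 libraries, red above and blue below, with the color scale ending at 1.5 either way. DDB1_KD replicates 2, 3 and 5 are blue for CDT1, ORC1, MCM2, CDC45, GINS2 and POLD1, and have 442, 190 and 152 FPKM in the top panel.

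The DDB1_KD libraries also spread more than the NC libraries. The SD of log2(FPKM + 1) was larger in DDB1_KD for 19 of the 30 members (63.3%), beside 70.6% of all tested genes. For 10 members (33.3%) the DDB1_KD libraries reached beyond the NC range at both ends, namely CDT1, ORC2, MCM2, MCM7, CDC45, GINS3, POLD1, LIG1, RRM1 and CDK2, beside 35.8% of all tested genes. Both shares were near those of all genes. The members' median coefficient of variation was 26.2%, beside 35.2% over all tested genes, and the median size of their fitted change was 0.16 beside 0.23 on the log2 scale. Their median level was 13.9 FPKM beside 5.70, and 20 of the 30 stood above the median of all tested genes.

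Levels of the 32 measured genes spanned a wide range on the gene FPKM scale. PCNA led with a mean of 313 FPKM over the 10 libraries, followed by ORC6 (91.6), TYMS (63.8), RFC3 (59.6) and RRM2 (48.3), then MCM6 (32.8) and GMNN (30.5). CDT1 (2.93), GINS3 (2.75), CDK2 (2.41) and CDC45 (1.79) were the lowest above the filter. TYMS and RFC3, and likewise MCM6 and GMNN, differed by less than their SD over libraries. The length behind a deposited gene level was at least that of the gene's longest isoform, so the gene level is lower than the sum of isoform levels where shorter isoforms hold counts. The sum exceeded the gene level by over 1.5 times for 5 members: CDC6 (2.41 times), GMNN (2.31), MCM7 (1.82), CDK2 (1.8) and RFC4 (1.74). By that sum GMNN, at 70.4 FPKM, stood behind PCNA and ORC6 alone, where its gene level stood behind 6 members. These factors bear on levels between genes. The fitted changes come from counts summed over isoforms, in which longer isoforms weigh more, so they can move with the isoform mix. For GMNN the isoform sums averaged 79.1 ± 17.4 FPKM in DDB1_KD and 61.7 ± 18.9 in NC, beside a fitted log2 fold change of 0.23 from counts.

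**Figure D5:**
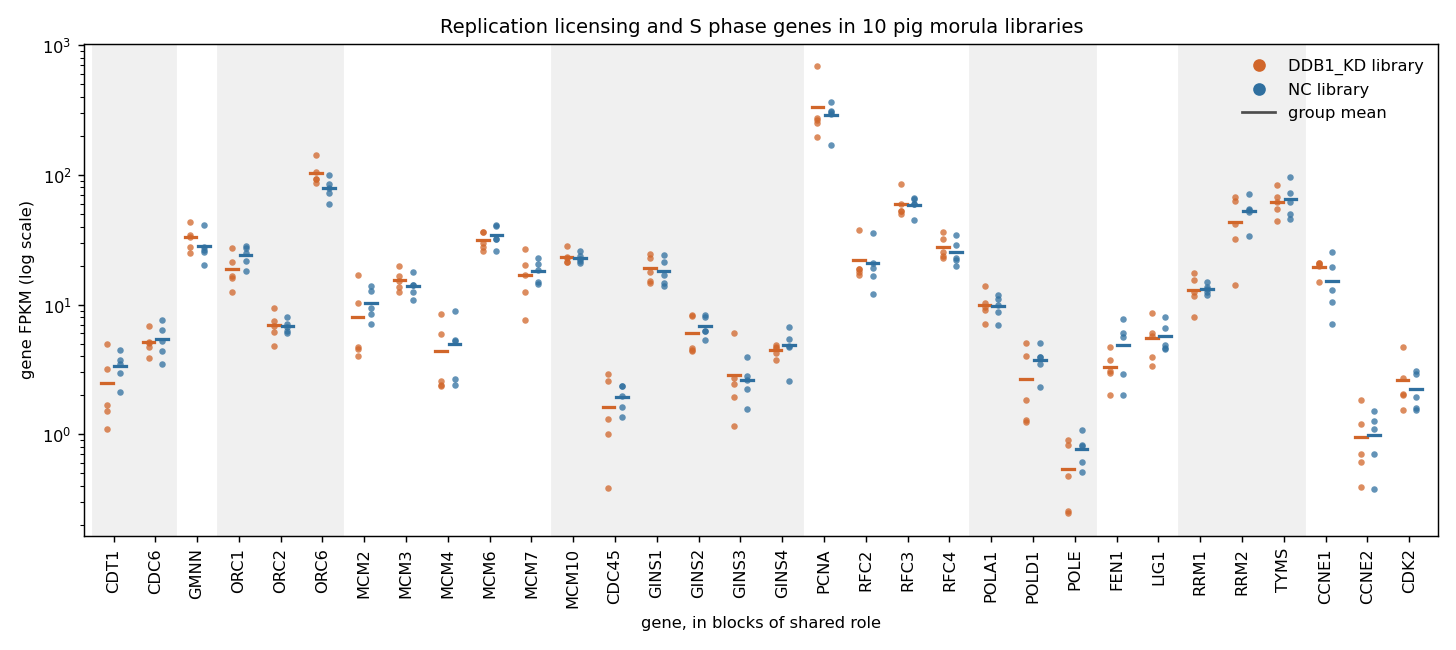
Gene FPKM (log scale) of the 32 measured genes in each library, orange for DDB1_KD and blue for NC, with a line at each group mean and shading by role. PCNA is highest at a mean of 313 FPKM and POLE lowest at 0.653, and the groups overlap for every tested gene.

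The table lists 69 isoforms of these genes, of which 42 had a mean of at least 1 FPKM and were tested among 11250. None of the 42 passed an adjusted p of 0.05 in edgeR's quasi-likelihood test (0.00889% of all tested isoforms passed, a single one, of RARS2), and none had an unadjusted p under 0.05 (3.36% of all). Fitted values were above 0 for 18 and below 0 for 24, beside 50.6% of all tested isoforms above 0. The main isoform of GMNN, ENSSSCT00000001191 with 7 exons and 1481 bases, came nearest with the single isoform of ORC6. It was at 66.3, 71.9, 65.3, 33.3 and 39.8 FPKM in DDB1_KD and at 26.6, 54.1, 29.2, 33.2 and 36.0 FPKM in NC. DDB1_KD replicates 1, 2 and 3 exceeded every NC library, and replicate 4 and replicate 5 fell within the NC range. The fitted log2 fold change was 0.63 (SE 0.30), against 0.23 for the whole gene. This isoform held 69.8% of the gene's isoform FPKM in DDB1_KD and 59.3% in NC. The longer ENSSSCT00000036869 held 18.9% in DDB1_KD and 26.6% in NC, with a fitted value of -0.19 (SE 0.31). Another tested isoform, ENSSSCT00000064028, was at 39.6 FPKM in DDB1_KD replicate 5 and 34.0 FPKM in NC replicate 3. It was at 0.306 to 10.4 FPKM in the other libraries, with a fitted value of 0.08 (SE 1.42). Its share ran from 0.426% to 46.2% between libraries, and that of the main isoform from 39.6% to 81.6%. The part of this varying assignment in the main isoform's shares and fitted value of 0.63 was not tested.

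CDK2 was divided between isoforms with fitted values of opposite sign, 0.60 (SE 0.50) for ENSSSCT00000053267 and -0.53 (SE 0.55) for ENSSSCT00000057759. Assignment to isoforms was unstable for some genes: the share of MCM4 given to ENSSSCT00000042468 ran from 1.75% to 92.8% between libraries. CDT1, MCM2 and POLA1 each had 1 isoform that held nearly all of the level.

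Genes of the same pathway outside the list, 104 names in 9 groups, had 82 tested members. None passed (0.0% of all tested genes did). Of the 82, 49 were fitted above 0 (59.8%, beside 50.0% of all tested genes) and 33 below. Their median was 0.12 on the log2 scale, beside 0.00 over all tested genes. RBL1, a pocket protein that restrains E2F, was the one gene of the 82 below 0.05 before adjustment, beside 2.89% of all tested genes (edgeR adjusted p = 0.977), at 2.85 ± 0.517 FPKM in DDB1_KD and 1.95 ± 0.516 in NC (log2 fold change 0.55, SE 0.25).

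In the origin recognition and firing group, 10 of 11 tested genes were fitted above 0 and 1 below, beside 50.0% of all tested genes above. The group's median was 0.31, with 0 passing. Its smallest unadjusted p in edgeR's quasi-likelihood test was 0.124, for ORC5. ORC5, another recognition subunit, was at 0.42 (SE 0.25), TICRR, which carries the CDK signal to origins, at 0.43 (SE 0.30), and TOPBP1, its partner, at -0.06 (SE 0.19). Fork proteins had 5 of 8 above 0. CLSPN, the checkpoint mediator claspin, had 13.3 FPKM in DDB1_KD and 13.2 in NC. MCM8 was at 0.27 (SE 0.28) and ATAD5, which unloads PCNA, at -0.20 (SE 0.21). Polymerase, primase and clamp loader subunits had 6 of 11 above 0, led by RFC5 at 0.45 (SE 0.23) with POLD4 lowest at -0.40 (SE 0.61). Okazaki fragment and topology enzymes had 5 of 9 above 0, with TOP1, the topoisomerase ahead of the fork, at -0.29 (SE 0.16) and POLB at 0.23 (SE 0.16).

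Nucleotide supply genes outside the list were split 5 to 5. RRM2B, an alternative small subunit that pairs with RRM1, was at 0.519, 29.6, 15.4, 2.26 and 9.80 FPKM in DDB1_KD and at 5.82, 5.77, 10.8, 1.25 and 0.400 FPKM in NC. DDB1_KD replicates 2 and 3 were above every NC library. Its fitted value was 1.27 (SE 0.94), and 0.63 without replicate 2. DUT, which removes dUTP, was at -0.35 (SE 0.21). Chromatin assembly genes had 5 of 8 above 0, among them HAT1, the acetyltransferase of new histone H4, at 133 ± 68.6 FPKM in DDB1_KD and 81.2 ± 20.7 in NC (0.72, SE 0.35), and ASF1A, a histone chaperone, at 0.54 (SE 0.26). SLBP, which binds histone messenger RNA, was at -0.23 (SE 0.35).

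The ligase genes that act on licensing factors, DDB1 itself not among them, had 7 of 10 above 0 and 0 passing. DTL, which encodes CDT2, the receptor that brings CDT1 to the DDB1 ligase, was at 8.60 FPKM in DDB1_KD and 8.01 in NC (log2 fold change 0.10, SE 0.30). CUL4A and CUL4B, the scaffolds that DDB1 binds, were at -0.18 (SE 0.35) and -0.42 (SE 0.30). SKP2, the receptor of the other CDT1 ligase, was at 0.11 (SE 0.31). E2F and pocket protein genes had 4 of 10 above 0, with E2F8, a repressor, at -0.52 (SE 0.30). The 5 tested kinase, cyclin and inhibitor genes had 2 above 0. Of these, CCNA1 was at 12.0 FPKM in DDB1_KD replicate 3 and at most 2.56 FPKM in the other libraries, and its fitted value of 1.34 (SE 1.59) was -2.59 without that library.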

How the data were processed

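RNA-seq libraries of pig morulae, 5 DDB1_KD and 5 NC, were grouped by their titles. The deposited tables list FPKM values and estimated counts for 24358 genes and 47421 isoforms, per the file headers. The submitters' processing notes name fastp, HISAT2, HOMER, ChIPseeker, StringTie and edgeR, without versions or roles, and the build susScr11, to which the printed coordinates are taken to refer. The deposited counts are whole, gene counts equal the sum of isoform counts for all 24358 genes, and isoform counts equal FPKM times length times a constant within 1.5 counts plus 0.5% for 100% of values above 0. They may thus be estimates from coverage, and their sampling error may differ from that of reads. Where a count is 0 the deposited FPKM is 0.0001. Intervals cover the spread between libraries only.

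Counts as deposited were tested with edgeR 4.0.16 (R 4.3.3, TMM scaling, glmQLFit and glmQLFTest, group as the only term) over the 8476 genes and 11250 isoforms whose FPKM averaged 1 or more. P-values were adjusted by Benjamini and Hochberg over all of them, with 0.05 as the threshold. The SE is that of the log2 fold change. DDB1 alone also had an exact permutation test (scipy 1.17.1). The fits were also run on simulated counts, with changes larger than that fitted for any member. That run does not show whether changes of the members' size would be found. Alternatives were DESeq2 1.42.0, limma 3.58.1 on log2(FPKM + 1) and log2(FPKM + 0.1), other scalings and filters, the replicate number as a block, and each library left out. Depth was 32466912 to 50911295 estimated counts per library.

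The table names 17451 genes, Ensembl names filled in 951 and RefSeq names 719. CDK2 was read from the row the table names so. Overlapping opposite-strand genes were listed for 15 members. The members, roles and lists were chosen with earlier results of these data known. All members are named, with DDB1 and up to 2 genes per direction of each wider list with the smallest p. A gene that this rule names is not reported here. CLSPN, DTL, SKP2 and the genes of the closing section were chosen after their values were seen. No sequences are printed.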

Additional observations from a re-analysis of the deposited data

Results flagged for a closer look

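Within a group of 5, a single library stood far from the other 4 in 12 of 136 sets of values examined, where chance gives about 1 in 20. None of these was explained or tested further. Among the replication genes, MCM10 was at 28.5 FPKM in DDB1_KD replicate 2 (21.4 to 23.3 in the other 4), PCNA at 688 FPKM in DDB1_KD replicate 2 (196 to 276), RFC2 at 37.4 FPKM in DDB1_KD replicate 4 (16.9 to 18.8) and CCNE1 low at 15 FPKM in DDB1_KD replicate 3 (20.0 to 21.1).

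In the wider lists, DDB1_KD replicate 2 was high for MCM8 at 8.60 FPKM (3.54 to 4.82 in the others) and RBL1 at 3.75 (2.48 to 2.79). DDB1_KD replicate 4 was high for CDK6 at 4.20 FPKM (1.38 to 1.84) and RPA1 at 13.1 (7.07 to 8.48). CCNA1 was at 12.0 FPKM in DDB1_KD replicate 3 (0.0001 to 0.490), and POLB was low at 34.0 in DDB1_KD replicate 1 (46.4 to 50.4). In NC, CHAF1B was at 5.36 FPKM in replicate 1 (3.66 to 3.78) and HAT1 at 117 in replicate 4 (62.9 to 78.5).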

How the results depend on the processing

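The count of members passing was 0 under every alternative run, leave-one-out included, and the smallest adjusted p of a member under any of them was 0.469 (ORC6, without DDB1_KD replicate 4). Over all genes 0 passed except with DESeq2, which called 2, DDB1 (-1.36) and YAP1. Isoforms passing were 1 as reported, 0 without the filter, 0 with the replicate block, and 0 to 2 with 1 library left out. Same-numbered libraries correlated at -0.142 to 0.354 in their deviations, and differently numbered ones at -0.345 to 0.342. These few values do not show that the numbers pair the libraries and cannot exclude it. The fit with the block called 0 genes, as did the fit without it. The CDT1 share of GMNN kept DDB1_KD below NC, at 5.56% to 9.90% and 11% to 15.2% with 1 library left out. The log2(FPKM + 1) difference of DDB1 was -0.93, and -1.01 to -0.85 with 1 library left out, at an exact p of 0.0159. Of 232 member values under the other alternatives 7 changed sign, in 3 members: GINS3 (-0.03) and ORC2 (-0.01) in limma with a pseudocount of 0.1, GINS3 (-0.03) with the block, and 4 at values that round to 0.00 (ORC2 in limma with a pseudocount of 1 and with the block, RRM1 in DESeq2 and with its size factors). CCNA1, outside the list, changed sign to -0.38 in limma with a pseudocount of 0.1 and to -1.08 with the block. The causes were not tested.

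With 1 library left out, 16 of the 30 members changed sign, with ranges of -0.22 to 0.08 for CDC6, -0.12 to 0.18 for ORC2, -0.53 to 0.11 for MCM4, -0.31 to 0.04 for MCM7, -0.01 to 0.11 for MCM10, -0.02 to 0.19 for GINS1, -0.27 to 0.32 for GINS3, -0.24 to 0.03 for GINS4, -0.20 to 0.36 for PCNA, -0.14 to 0.32 for RFC2, -0.14 to 0.13 for RFC3, -0.09 to 0.15 for POLA1, -0.22 to 0.07 for LIG1, -0.11 to 0.11 for RRM1, -0.17 to 0.08 for TYMS and -0.05 to 0.37 for CDK2. So did CCNA1 (-2.59 to 1.93), CDK4 (-0.09 to 0.22), CHAF1B (-0.17 to 0.10), CUL4A (-0.38 to 0.01), RPA1 (-0.20 to 0.05) and TOPBP1 (-0.16 to 0.03). The other 14 members kept their direction under every alternative. Sequence features of the members were not run, since no sequences were used here. The SE of 0.26 at the median, and for CDT1 121 to 474 counts, limit what could be seen.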

Other observations

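Some regulators of entry into S phase that are prominent in cultured cells were at very low levels in both groups. E2F1, an activator of replication genes, was at 0.0467 FPKM in DDB1_KD and 0.0412 in NC, and E2F2 at 0.171 and 0.415, while E2F3, the other activator, was at 2.99 and 2.75 (log2 fold change 0.12, SE 0.40). E2F4, which acts mostly as a repressor with pocket proteins, was the highest E2F gene at 10.2 and 12.5 FPKM (-0.31, SE 0.38). Among D cyclins, CCND1 was at 0.051 and 0.114 FPKM and CCND2 at 0.237 and 0.191, while CCND3 was at 3.61 and 4.68 (-0.37, SE 0.40). CDKN1B, an inhibitor of cyclin E with CDK2, was at 0.755 and 0.636 FPKM, and CDKN1A, another, at 9.57 and 12.2 (-0.32, SE 0.65). UHRF1, which guides DNMT1 to new DNA, was at 0.177 and 0.183 FPKM, beside 35.4 and 28.2 for DNMT1 (0.33, SE 0.53). None of the tested genes named here passed edgeR's threshold, and all these levels are on the gene FPKM scale.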
